A study of Homo sapiens with 4 samples.

Results

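The genes described here are 50 genes of DNA replication and nucleotide supply, chosen by symbol from a list of helicase, polymerase, clamp, origin, Okazaki fragment, nucleotide and chromatin assembly genes. They, and the lists of other pathway genes given further below, were chosen with earlier results of these data known. All 50 symbols matched 1 gene ID each, out of 25798 gene IDs in the deposited tables, and all 50 were among the 17090 genes that passed the filter on low counts. Replication starts when the origin recognition complex, CDC6 and CDT1 load the MCM2 to MCM7 helicase on DNA in G1 phase. In S phase the helicase is joined by CDC45 and the GINS complex, and primase, polymerases, the PCNA clamp and the enzymes of dNTP synthesis follow. Most of these genes are known targets of E2F transcription factors and are transcribed most strongly around the start of S phase, so their messages are widely used as a mark of cells that are dividing.

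RNA sequencing was done on SW1990, an established human pancreatic adenocarcinoma cell line that the labels give as wild type. Cells of 2 libraries were exposed to 100 nM erianin for 48 h, and cells of 2 further libraries received DMSO, the solvent, over the same time. Erianin is a bibenzyl from Dendrobium orchids that is known as a tubulin binder, and the kinases AKT and ASK1 are the targets that the study's title gives. Separate cultures are not mentioned for the replicates, so p-values here measure library-to-library spread, which could be technical.

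The deposited counts summed to between 59923935 and 63336545 per library. The 50 genes together took 0.252% and 0.25% of all counts in the erianin libraries, against 0.262% and 0.26% in the DMSO libraries. In CPM, on TMM-adjusted library sizes, they summed to 2503 and 2700 with erianin, against 2512 and 2538 with DMSO. In FPKM they summed to 1045 and 995 with erianin, against 1039 and 1036 with DMSO. On both of these scales the groups overlapped. In bulk RNA, fewer cells in S phase and less message per cell cannot be told apart. Keratins 7, 8, 18 and 19, markers of ductal epithelium, lay between 1380.2 and 6533 CPM (counts scaled to library size) in all 4 libraries, while EPCAM and MUC1 lay between 2.39 and 6.05 CPM. The 5 fibroblast markers summed to 6.53 and 8.85 CPM with erianin, against 33.3 CPM in DMSO replicate 1 and 8.82 CPM in DMSO replicate 2. Blood, endothelial and acinar markers in the tables, apart from CD68, stayed at or below 1.3 CPM. DCN was at 0 in both erianin libraries, and COL3A1 in erianin replicate 1. Without DMSO replicate 1, the library in which these markers were high, the median log2 fold change of the 50 genes described next was -0.16 and 36 of them lay below 0.

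The comparison of erianin with DMSO asked whether the replication genes differ after exposure. None did by the test across all genes: 0 of 50 passed edgeR's quasi-likelihood test at an adjusted p under 0.05 (smallest adjusted p = 0.575), against 0.041% of all genes tested. More of the 50 lay below DMSO than above it, by small amounts. Because the 50 were chosen with earlier results of these data known, the contrasts with all genes are descriptions. The log2 fold change was below 0 for 37 of 50 genes (74.0%), against 51.3% of all genes tested, and its median was -0.14, against -0.01 for all genes. Both erianin libraries lay below both DMSO libraries for 17 genes (34%), against 24.4% of all genes, and above both for 6 genes (12.0%), against 21.7% of all genes. RFC1, MCM6 and RRM1 were lower at an unadjusted p under 0.05, which makes 3 genes. That share of 6.0% is close to the 5.89% of all genes that were lower at this level. Higher at that level were 0 of the 50, against 2.21% of all genes.

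Erianin replicate 2 lay farther from DMSO than erianin replicate 1. Set against the mean of the DMSO libraries, erianin replicate 1 had a median log2 difference over the 50 genes of -0.08 (all genes -0.01). Erianin replicate 2 had one of -0.22 (all genes -0.02). Of the 50 genes, 31 were lower in erianin replicate 2 than in erianin replicate 1, a count that was not made over all genes. Without erianin replicate 1 the count of 0 became 15 of 50 genes (11 lower, 22%, and 4 higher, 8%), where 10.2% and 7.3% of all genes passed as lower and as higher. That fit has a single erianin library, which is assumed to vary as the DMSO libraries do. With the GC and length trend described below removed as well, RPA3 alone passed, as higher, where 1.36% of all genes passed as lower and 2.46% as higher. Without each other library 0 of 50 passed. The 95% confidence interval of the log2 fold change lay within a 2-fold change for 43 genes and within a 1.5-fold change for 27, and it held 0 for 47.

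**Figure D1:**
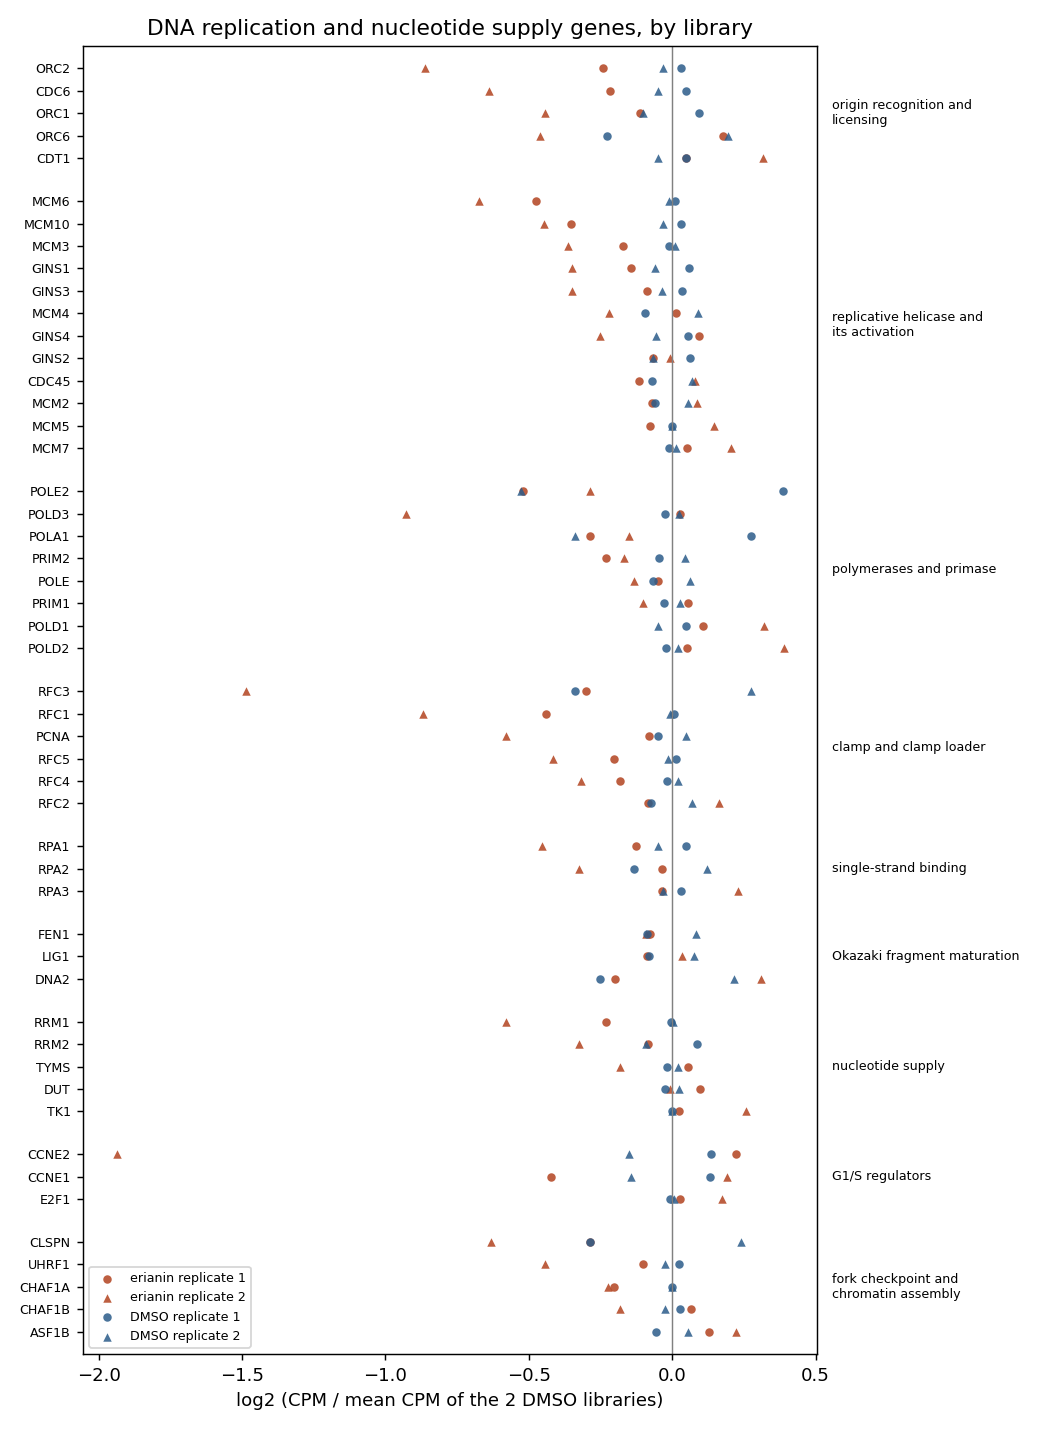
Level of each of the 50 genes in each library, as log2 of its CPM over the mean CPM of the 2 DMSO libraries, with genes grouped by role and ordered by log2 fold change within a group. Red marks are erianin libraries and blue marks DMSO libraries, circles are replicate 1 and triangles replicate 2; red triangles reach farthest to the left for CCNE2, RFC3, POLD3, RFC1 and ORC2.

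The fold changes followed the GC content of the genes. Across the 50 genes the Spearman correlation between GC content and log2 fold change was 0.664, and across the 7996 genes whose log2 CPM averaged 3 or more it was 0.663. Genes share the same 4 libraries and are not independent replicates, so this is a description. Of 18 replication genes with a GC content under 45%, 16 lay below 0 with a median log2 fold change of -0.38, in a band where 76.1% of all genes lay below 0 with a median of -0.26. Of the 12 with at least 55% GC, 3 lay below 0 with a median of 0.12, where the median of all genes was 0.14. Between these, 12 of 13 genes with 45 to 50% GC lay below 0 (92.3%, against 63.2% of all genes), as did 6 of 7 with 50 to 55% GC (85.7%, against 41.9% of all genes). After the dependence on GC content and transcript length had been taken out of each library, the median of the 50 was -0.08, against -0.01 for all genes, with 39 of 50 below 0 (78.0%, against 51.9%). In that fit MCM3, MCM6, RFC1 and CHAF1A were lower at an unadjusted p under 0.05 (8%, against 3.12% of all genes), at an adjusted p of 0.738 each, and 0 of the 50 were higher, against 3.36% of all genes. Whether the trend comes from the libraries or from the cells was not tested.

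**Figure D2:**
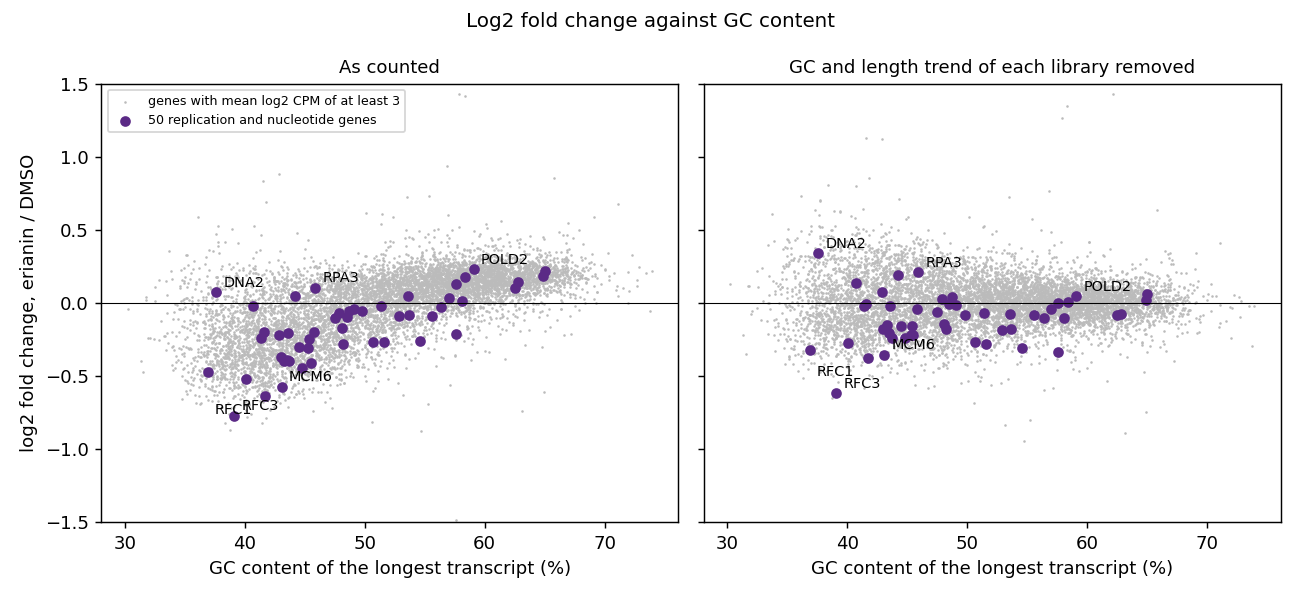
Log2 fold change of erianin over DMSO against the GC content of the longest transcript in percent, as counted (left) and after removal of the GC and length trend (right). Purple points are the 50 replication and nucleotide genes and grey points are the genes whose log2 CPM averaged 3 or more. The trend was fitted on genes of that level, so the slope of the grey cloud is gone on the right by construction. On the right 39 of the 50 purple points lie below 0.

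Upstream sequences of 6 genes are shown because E2F sites in such promoters are what ties these genes to the start of S phase, and because RFC1, MCM6 and RRM1 had the smallest p-values. They are RefSeq sequences on GRCh38.p14, 41 to 120 bases long, taken before the first listed start and ending before the first base of a GENCODE exon. In the first 4, capitals mark matches to the E2F words TTTCCCGC, TTTCGCGC, TTTGCCGC and TTTGGCGC on either strand. RRM1 and RFC1 hold no such word in the window searched, and there capitals mark CCAAT on either strand, the core of the NF-Y site.
MCM6, chr2:135876484-135876603, minus strand: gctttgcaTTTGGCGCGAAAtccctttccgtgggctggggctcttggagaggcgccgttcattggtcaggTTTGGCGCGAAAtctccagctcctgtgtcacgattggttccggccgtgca
MCM3, chr6:52284882-52284922, minus strand: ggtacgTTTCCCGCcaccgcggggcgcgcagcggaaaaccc
PCNA, chr20:5126627-5126742, minus strand: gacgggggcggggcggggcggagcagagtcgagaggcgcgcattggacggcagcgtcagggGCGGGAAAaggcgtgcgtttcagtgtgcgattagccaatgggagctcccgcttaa
E2F1, chr20:33686405-33686505, minus strand: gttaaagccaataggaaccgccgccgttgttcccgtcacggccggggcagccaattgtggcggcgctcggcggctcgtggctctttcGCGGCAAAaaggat
RRM1, chr11:4094565-4094684, plus strand: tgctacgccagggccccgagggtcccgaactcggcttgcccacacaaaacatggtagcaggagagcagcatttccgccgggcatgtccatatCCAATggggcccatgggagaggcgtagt
RFC1, chr4:39366443-39366562, minus strand: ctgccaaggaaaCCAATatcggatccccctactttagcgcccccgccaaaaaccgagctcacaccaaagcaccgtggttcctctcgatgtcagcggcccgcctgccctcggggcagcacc

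The MCM6 stretch holds 4 matches, in 2 copies of 1 motif where a word on each strand overlaps the other. RefSeq windows from 250 bases before to 50 after a start were matched for 42 of the 50 genes. An E2F word stood in a window of 20 of the 42 (47.6%), against 3.99% of 27305 genes searched in the same way. CCAAT stood in windows of 27 of the 42 (64.3%, against 39.7% of all genes), and TTTGAA, the cell cycle homology region word, in 3 (7.14%, against 18.2%). These matches are letters only and show no binding. The genes with an E2F word had a median log2 fold change of -0.21, with 15 of 20 below 0. Those with a window and no E2F word had a median of -0.15, with 17 of 22 below 0, and the difference between these medians was not tested. With the trend removed their order turned, to -0.09 with an E2F word and -0.11 without. Genes with a word lay on both sides of 0: E2F1 had a log2 fold change of 0.10 and MCM6 one of -0.57.

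Of the 5 genes of origin recognition and licensing, 4 had a log2 fold change below 0 (median -0.27). In 3 of the 5 both erianin libraries lay below both DMSO libraries (60%, against 24.4% of all genes). With the GC and length trend removed 4 of 5 still lay below 0, with a median of -0.22. CDC6, the ATPase that loads the helicase together with the origin recognition complex, had 11.4 and 8.51 CPM with erianin, against 13.7 and 12.8 CPM with DMSO. Its erianin libraries lay below both DMSO libraries, with a log2 fold change of -0.41 ± 0.19 (SE), or -0.22 with the trend removed. ORC2, a subunit of the origin recognition complex, had 5.89 and 3.83 CPM with erianin, against 7.12 and 6.81 CPM with DMSO, and a log2 fold change of -0.52 ± 0.25 (SE), or -0.28 with the trend removed. The gap between the erianin libraries of ORC2 was larger than its distance from DMSO in erianin replicate 1. ORC1, the ATPase subunit whose level cycles, had one of -0.27 ± 0.20 (SE), and ORC6 had one of -0.10 ± 0.28 (SE). CDT1, the loading factor that geminin blocks, had 126 and 152 CPM with erianin, against 126 and 118 CPM with DMSO. The groups overlapped for CDT1, whose log2 fold change of 0.19 ± 0.12 (SE) was 0.02 with the trend removed.

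Among the 12 genes of the helicase and its activation, 9 lay below 0 (median -0.08, or -0.03 with the trend removed). In 5 of them (41.7%, against 24.4% of all genes) both erianin libraries lay below both DMSO libraries. MCM6 (GRCh38 chromosome 2, 135839626 to 135876426, minus strand) encodes a helicase subunit. It had 15.5 and 13.5 CPM with erianin, against 21.7 and 21.4 CPM with DMSO, so its erianin libraries lay well apart from tightly grouped DMSO libraries. That is a change of -32.7% and a log2 fold change of -0.57 ± 0.15 (SE; unadjusted p = 0.00568, adjusted p = 0.575 by edgeR). Over the fits that left out 1 library it ran from -0.69 to -0.47, and it was -0.35 once the GC and length trend had been removed. MCM3, another subunit, had 50.7 and 44.3 CPM with erianin, against 56.6 and 57.5 CPM with DMSO, and a log2 fold change of -0.26 ± 0.12 (SE) that was -0.28 with the trend removed. MCM7 had 179 and 199 CPM with erianin, against 171 and 174 CPM with DMSO, so both erianin libraries were the higher ones. Its log2 fold change of 0.13 ± 0.10 (SE) was -0.0002 with the trend removed. The log2 fold changes of MCM2 and MCM5 were 0.01 ± 0.10 and 0.03 ± 0.11 (SE), while MCM4 had one of -0.10 ± 0.16 (SE). The 6 subunits of the helicase ring therefore lay on both sides of 0, 3 on each side, at 1 dose and time. With the trend removed all 6 lay below 0, MCM7 by next to nothing, with a median of -0.07.

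The factors that switch the helicase on lay closer together. The products of the 4 GINS genes form a ring-shaped complex on the helicase. All 4 genes had log2 fold changes below 0, from -0.24 for GINS1 to -0.04 for GINS2. With the trend removed 3 of the 4 lay below 0, with a median of -0.02, and GINS4 was at 0.03. GINS1 had 5.02 and 4.35 CPM with erianin, against 5.77 and 5.31 CPM with DMSO. MCM10, which the helicase needs to become active, had 3.05 and 2.86 CPM with erianin, against 3.98 and 3.81 CPM with DMSO. Its groups did not overlap, and its log2 fold change was -0.40 ± 0.24 (SE), or -0.15 with the trend removed. The highest row of MCM10 alone gave 0.51. CDC45, the third part of the active helicase, had 19.2 and 22 CPM with erianin, against 19.8 and 21.8 CPM with DMSO, and showed no gap between the groups.

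The 8 genes of polymerases and primase lay on both sides of 0, with 6 below it (median -0.14). With the trend removed the median turned to 0.02, with 4 of 8 below 0. POLD2, the accessory subunit of polymerase delta, was the most abundant gene of the set. It had 444 and 561 CPM with erianin, against 422 and 435 CPM with DMSO, and POLD1, the catalytic subunit, had 126 and 146 CPM with erianin, against 121 and 113 CPM with DMSO. Both genes were higher in both erianin libraries, by log2 fold changes of 0.23 ± 0.12 and 0.22 ± 0.11 (SE), at an adjusted p of 0.576 and 0.575 from edgeR. With the trend removed these were 0.05 and 0.06. POLD3, a further subunit of the same enzyme, had 5.54 and 2.86 CPM with erianin, against 5.35 and 5.53 CPM with DMSO, so it was low in erianin replicate 2 only. POLE, the catalytic subunit of the leading-strand polymerase epsilon, had a log2 fold change of -0.09 ± 0.12 (SE). POLE2 and POLA1, the second subunit of epsilon and the catalytic subunit of polymerase alpha, had log2 fold changes of -0.40 ± 0.36 and -0.22 ± 0.26 (SE). Both were high in DMSO replicate 1 alone. Among the primase genes, PRIM2 had a log2 fold change of -0.20 ± 0.19 and PRIM1 one of -0.02 ± 0.20 (SE).

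Of the 6 genes of the clamp and its loader, 5 lay below 0 (median -0.31, or -0.19 with the trend removed). Both erianin libraries lay below both DMSO libraries in 4 of the 6 (66.7%, against 24.4% of all genes). The other groups of genes had smaller shares, of 60% for origin recognition and licensing and 41.7% for the helicase. The share was 40% for fork checkpoint and chromatin assembly and 33.3% for single-strand binding. Nucleotide supply had 20%, polymerases and primase 12.5%, and Okazaki fragment maturation and G1/S regulators 0%. Each group has 3 to 12 genes. RFC1 (chromosome 4, 39287456 to 39366375, minus strand) encodes the large subunit of the clamp loader. It had 14.8 and 11 CPM with erianin, against 20.2 and 20 CPM with DMSO. Both erianin libraries were far below the DMSO libraries, a change of -35.6% and a log2 fold change of -0.63 ± 0.18 (SE; unadjusted p = 0.00787, adjusted p = 0.575 by edgeR's quasi-likelihood test). It ran from -0.87 to -0.44 over the fits that left out 1 library and was -0.38 with the trend removed. RFC3 had 2.86 and 1.26 CPM with erianin, against 2.79 and 4.26 CPM with DMSO. Its groups overlapped, since erianin replicate 1 was above DMSO replicate 1, and its log2 fold change of -0.77 ± 0.42 (SE) was -0.30 without erianin replicate 2. RFC4 and RFC5, with both erianin libraries below both DMSO libraries, had log2 fold changes of -0.25 ± 0.16 and -0.30 ± 0.17 (SE). RFC2 had 25.3 and 30.1 CPM with erianin, against 25.5 and 28.2 CPM with DMSO, with overlapping groups. PCNA, the sliding clamp itself, had 35.3 and 25 CPM with erianin, against 36.1 and 38.6 CPM with DMSO. Its log2 fold change of -0.31 ± 0.18 (SE) was -0.08 without erianin replicate 2 and -0.59 without erianin replicate 1.

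Replication protein A coats single-stranded DNA behind the helicase. RPA1, its large subunit, had 48 and 38.2 CPM with erianin, against 54.1 and 50.6 CPM with DMSO, a log2 fold change of -0.28 ± 0.14 (SE) with groups that did not overlap. RPA2 had 23.3 and 19.1 CPM with erianin, against 21.8 and 26 CPM with DMSO. RPA3, the small subunit, had 63.3 and 76.1 CPM with erianin, against 66.2 and 63.5 CPM with DMSO, and a log2 fold change of 0.10 ± 0.12 (SE). Among the enzymes that finish Okazaki fragments, FEN1 and LIG1 lay close to DMSO as counted. With the trend removed their log2 fold changes were -0.18 and -0.10. FEN1, the flap nuclease, had 41.6 and 41.2 CPM with erianin, against 41.3 and 46.4 CPM with DMSO, and a 95% interval of the log2 fold change from -0.37 to 0.20. LIG1, the ligase that seals the fragments, had 58.1 and 63.3 CPM with erianin, against 58.4 and 65.1 CPM with DMSO, with an interval from -0.29 to 0.24. DNA2, a nuclease and helicase, had 1.44 and 2.05 CPM with erianin, against 1.39 and 1.92 CPM with DMSO. At 92 to 120 counts per library its interval was wide, from -0.76 to 0.91. Its log2 fold change was 0.07, or 0.34 with the trend removed.

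Of the 5 genes of nucleotide supply, 3 lay below 0 (median -0.06). RRM1 (chromosome 11, 4094707 to 4138876, plus strand) encodes the large subunit of ribonucleotide reductase, which makes deoxyribonucleotides. It had 15.3 and 12 CPM with erianin, against 17.9 and 18 CPM with DMSO. Its groups did not overlap, and its log2 fold change was -0.39 ± 0.17 (SE; unadjusted p = 0.0491, adjusted p = 0.575 by edgeR), or -0.21 with the trend removed. RRM2, the small subunit of the same enzyme, had 64.8 and 54.8 CPM with erianin, against 72.9 and 64.4 CPM with DMSO, so the lowest DMSO library lay just under the highest erianin library. TK1, thymidine kinase of S phase, had 256 and 301 CPM with erianin, against 252 CPM in both DMSO libraries. Its log2 fold change was 0.14 ± 0.11 (SE), and with the trend removed it was -0.07. TYMS, thymidylate synthase, had 159 and 135 CPM with erianin, against 151 and 155 CPM with DMSO, and an interval from -0.31 to 0.19. DUT, the dUTPase that keeps uracil out of DNA, had a log2 fold change of 0.05 ± 0.12 (SE).

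E2F1, the transcription factor of the S phase genes, had 84.6 and 93.6 CPM with erianin, against 82.7 and 83.4 CPM with DMSO. Its log2 fold change was 0.10 ± 0.10 (SE), and it turned to -0.0008 with library totals in place of TMM factors and to -0.09 with the trend removed. CCNE1, cyclin E1, had 8.04 and 12.3 CPM with erianin, against 11.8 and 9.76 CPM with DMSO, and showed no direction. CCNE2, cyclin E2, had 41 and 8 counts with erianin, against 40 and 31 counts with DMSO, too few to read a difference (log2 fold change -0.48 ± 0.80, SE). Among the fork checkpoint and chromatin assembly genes, 4 of 5 lay below 0 (median -0.21). CHAF1A, of the histone chaperone CAF-1, had 24.3 and 24 CPM with erianin, against 28 CPM in both DMSO libraries, and its log2 fold change of -0.21 ± 0.13 (SE) was -0.33 with the trend removed. UHRF1, which brings DNA methylation to new strands, had 23.7 and 18.7 CPM with erianin, against 25.9 and 25 CPM with DMSO, and one of -0.26 ± 0.16 (SE). ASF1B, another histone chaperone, had 57.3 and 61.2 CPM with erianin, against 50.4 and 54.4 CPM with DMSO, so both erianin libraries were above DMSO (log2 fold change 0.18 ± 0.11, SE, and 0.01 with the trend removed). CLSPN, the gene of the checkpoint mediator claspin, had a log2 fold change of -0.44 ± 0.32 (SE), while that of CHAF1B was -0.05 ± 0.15 (SE).

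Levels per length, in FPKM, ranged over the 50 genes from a mean over all 4 libraries of 0.128 for CCNE2 to 241 for POLD2. After POLD2 came TK1 at 156, TYMS at 80.6, MCM7 at 60.1 and CDT1 at 42.2 FPKM. Subunits of 1 complex differed widely. The highest and lowest of MCM2 to MCM7 differed 17.7-fold and 21.4-fold in the erianin libraries, between MCM7 and MCM6, and 14.8-fold and 13.5-fold in the DMSO libraries, between MCM7 and MCM4. In ribonucleotide reductase RRM2 stood above RRM1 by 4-fold and 4.24-fold in the erianin libraries and by 3.81-fold and 3.26-fold in the DMSO libraries. The log2 fold change also followed the level: its Spearman correlation with log2 mean FPKM was 0.709 over the 50 genes and 0.5 over the 7996 genes. With the GC and length trend removed these were 0.324 and 0.194.

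**Figure D3:**
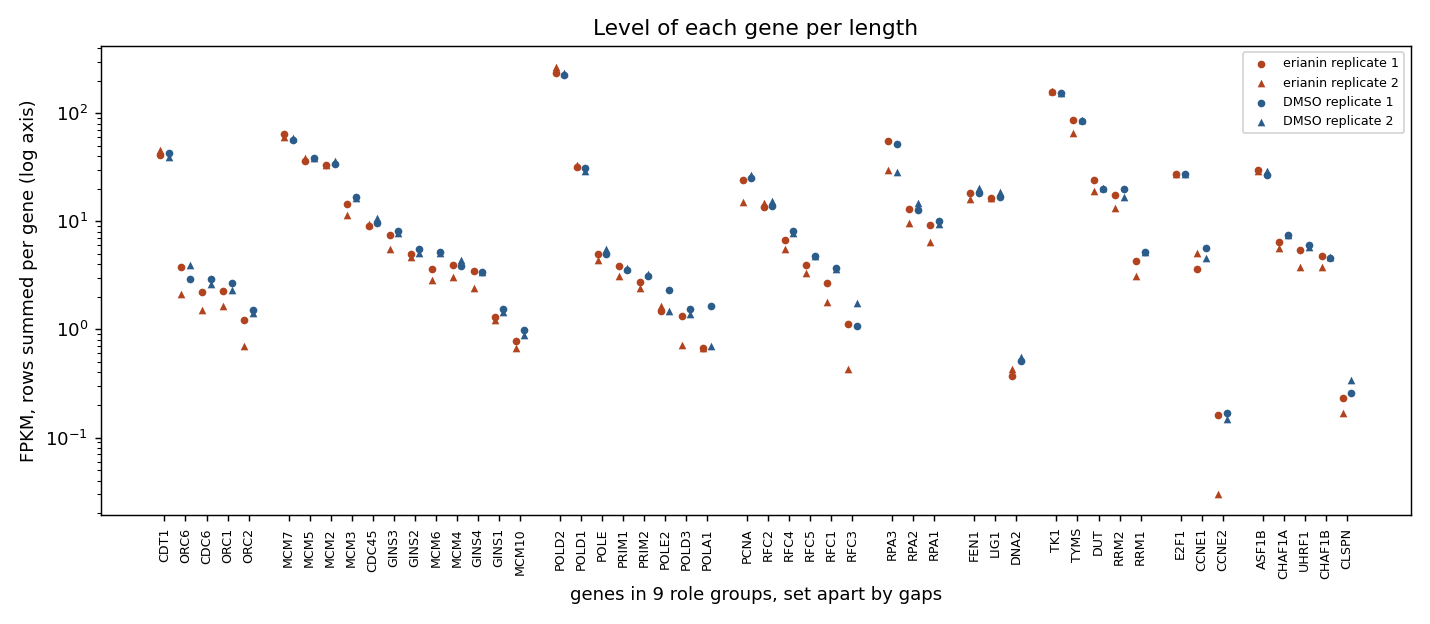
FPKM of each gene in each library on a log axis, rows summed per gene, with genes in 9 role groups ordered by level. Red marks are erianin libraries and blue marks DMSO libraries, circles are replicate 1 and triangles replicate 2; POLD2 and TK1 stand above 100 FPKM in all 4 libraries, while CCNE2, CLSPN, DNA2 and MCM10 stay under 1 FPKM in all 4.

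The count table splits most genes into several rows without names. For 47 of the 50 genes with several rows and at least 50 counts in each library, the share in the highest row was compared between libraries. In 10 genes (21.3%) that share did not overlap between the groups and its means differed by at least 10 percentage points, against 17.1% of all such genes. POLA1 had 99.6% and 99.2% of its counts in that row with erianin, against 0% and 27.8% with DMSO. MCM4 had 94.4% and 87.9% with erianin, against 55.6% and 58.3% with DMSO, and CDC45 had 86.6% and 82.5%, against 60.7% and 61.5%. UHRF1 had 59.1% and 77.1% with erianin, against 21.7% and 15.6% with DMSO. RFC1 went the other way, with 27.8% and 60.8% with erianin, against 74.2% and 72.3% with DMSO. Replicates could differ as much: RPA3 had 25.7% and 99.5% in the erianin libraries and 45.2% and 99.2% in the DMSO libraries. What the rows stand for is not given in the sources used here, so these shares are read as a division of counts and not as named transcripts.

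**Figure D4:**
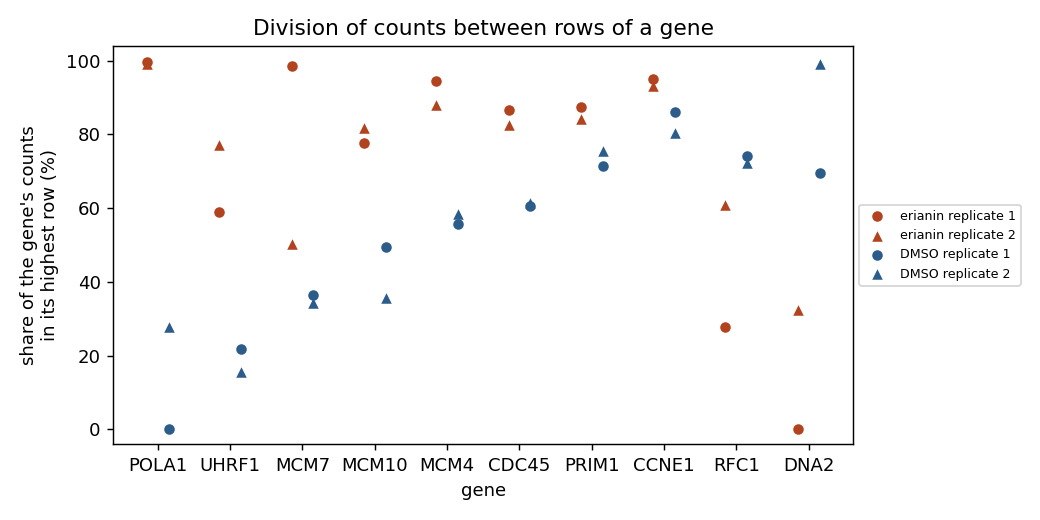
Share of a gene's counts in its highest row, in percent, for the 10 genes in which that share did not overlap between groups and differed by at least 10 points on average. Red marks are erianin libraries and blue marks DMSO libraries, circles are replicate 1 and triangles replicate 2; 8 genes are higher with erianin, and RFC1 and DNA2 are lower.

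Some of these genes share sequence with others. TYMS overlaps 967 exon bases of ENOSF1 on the opposite strand, MCM7 overlaps 392 of AP4M1, and CCNE2 overlaps 1629 of INTS8. Whether the counting used strand is not given in the sources used here, so reads from these overlaps cannot be told apart. UHRF1 has a processed pseudogene, AC112777.1, with 99.4% identity over 1423 bases and a mean of 2.11 CPM, between which reads could be divided.

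The other genes of the pathway, 81 on 4 lists, gave 0 that passed edgeR's test (smallest adjusted p = 0.575). Without erianin replicate 1, 31 of the 81 passed, 21 lower and 10 higher, where 10.2% and 7.3% of all genes did. At an unadjusted p under 0.05, 5.89% of all genes were lower and 2.21% higher, and the counts below stand beside those shares.

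Of 25 origin firing and fork factors, 16 lay below 0 (median -0.22), with 4 lower (16%) and 1 higher at that level. MCM8, a helicase of DNA repair related to the MCM ring, had 1.57 and 0.36 CPM with erianin, against 5.08 and 4.15 CPM with DMSO. Its log2 fold change was -2.24 ± 0.57 (SE), or -2.01 with the trend removed and -0.86 on the highest row alone. It ran from -3.68 to -1.55 over the fits that left out 1 library, and erianin replicate 2 held 20 counts. TIPIN, the partner of TIMELESS at the fork, had 3.8 and 3.74 CPM with erianin, against 5.39 and 6.52 CPM with DMSO. ORC3, of the origin recognition complex, had 15.7 and 17.6 CPM with erianin, against 12.2 and 12.8 CPM with DMSO, and was the 1 higher gene. In all 3, picked for the smallest p-values of the list, the groups did not overlap. Both erianin libraries lay below both DMSO libraries in 13 of the 25 (52%, against 24.4% of all genes). They lay above both in 5 of the 25 (20%, against 21.7% of all genes).

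Of 26 nucleotide synthesis genes, 16 lay below 0 (median -0.08), with 4 lower (15.4%) at that level. PPAT, which catalyses the committed step of purine synthesis, had 3.5 and 3.08 CPM with erianin, against 5.65 and 4.95 CPM with DMSO. UMPS, of pyrimidine synthesis, had 7.24 and 7.67 CPM with erianin, against 10.9 and 10 CPM with DMSO. RRM2B, the p53-induced subunit of ribonucleotide reductase, had 6.42 and 3.71 CPM with erianin, against 8.06 and 8.59 CPM with DMSO. These log2 fold changes were -0.69 ± 0.23, -0.49 ± 0.17 and -0.71 ± 0.27 (SE) in that order. With the trend removed they were -0.51, -0.32 and -0.49.

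Of 16 genes of the E2F and RB family, 13 lay below 0 (median -0.16), with 3 lower (18.8%) at that level. E2F8, a repressor, had 1.4 and 1.08 CPM with erianin, against 3.12 and 2.29 CPM with DMSO. RB1, the gene of pRB, had 14.2 and 9.29 CPM with erianin, against 18.4 and 16.5 CPM with DMSO. RBL2, the gene of p130, had 14 and 9.11 CPM with erianin, against 16.9 and 15.9 CPM with DMSO. For RB1 and RBL2 the erianin libraries differed from each other by more than erianin replicate 1 did from the lower DMSO library.

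Of 14 further chromatin and lagging-strand genes, 11 lay below 0 (median -0.20), with 3 lower (21.4%) at that level. TOP2A, the topoisomerase of dividing cells, had 30.4 and 24.7 CPM with erianin, against 42 and 36.4 CPM with DMSO. Its log2 fold change was -0.51 ± 0.15 (SE), or -0.22 with the trend removed. SUPT16H, of the histone chaperone FACT, had 32 and 21.1 CPM with erianin, against 39.6 and 34.8 CPM with DMSO. NASP, a histone carrier, had 48.2 and 36.2 CPM with erianin, against 56.9 and 52.9 CPM with DMSO. With the GC and length trend removed the medians of the 4 lists were 0.00, -0.04, 0.00 and -0.06 in that order. In that fit 12%, 3.85%, 6.25% and 0% of the lists were lower at an unadjusted p under 0.05, against 3.12% of all genes. Higher at that level were 2 of the 25 origin firing and fork factors and 0 on each other list, against 3.36% of all genes. All 4 lists have a median GC content of 42.0 to 47.7%.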

How the data were processed

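The authors deposited estimated counts, in whole numbers and not normalized, and FPKM values for the same rows, per the file headers. Tools listed without role or order in the submitters' processing notes are StringTie 2.2.1, featureCounts 2.0.1, STAR and fastp, with the build GRCh38. The 107429 rows were summed to 25798 gene IDs. The unequal rows under 1 gene ID look like reads apportioned to transcripts. A plan that had assumed plain counts was therefore carried out on counts treated as estimated.

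Groups came from the sample titles. The test was edgeR 4.0.16 in R 4.3.3 (TMM, filterByExpr with a minimum count of 10, quasi-likelihood F test, group only, 2 residual degrees of freedom), with Benjamini-Hochberg adjustment over 17090 genes at 0.05. SE is the log2 fold change over the square root of F, and CPM uses TMM-adjusted library sizes. Such p-values cover these 4 libraries only. GC content, length and gene positions came from GENCODE release 29. To remove the trend, each library's log2 CPM less the gene's mean was fitted on GC and length by splines (5 degrees of freedom) over genes whose log2 CPM averaged 3 or more, and used as an offset. Sequence sharing was searched with BLAST 2.17.0 (at least 200 bases at 95% identity). The edgeR step was tested on simulated data. Alternatives used limma 3.58.1 and DESeq2 1.42.0.

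The 50 genes and the lists were chosen with earlier results of these data known. Values in every library are given, by role, for the members with the 2 smallest p-values, the highest FPKM and the largest change against the group's median, and from each other list the 3 smallest p-values. The remaining members are given as fold changes, and some of their library values were added after they had been seen.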

Additional observations from a re-analysis of the deposited data

How the results depend on the processing

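The median log2 fold change of the 50 genes was below 0, and below that of all genes, in all 20 alternatives. It was -0.23 with library totals alone (all genes -0.11). Leaving out 1 library at a time gave -0.229 to -0.0828, and doing so with the GC and length trend removed, an alternative chosen after seeing the data, gave -0.122, -0.0726, -0.0711 and -0.0858. The count of the 50 that lay below 0 ran from 32 to 44. The count of 7 genes called over the whole table became 2 with library totals, 21 with DESeq2 and 2 with limma on log2(FPKM + 1). It was 0 with limma-voom and 0 with edgeR on the highest row per gene, with 1673 and 771 genes at an unadjusted p under 0.05. Leaving out 1 library gave 24 to 3166 calls, the most without erianin replicate 1, and with the trend removed 12, 37, 692 and 25. Of the 50, 15 passed without erianin replicate 1 and 0 without each other library. With the trend also removed 1 passed, RPA3, without erianin replicate 1.

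The replicate numbers are not shown to pair the libraries: same-numbered libraries deviated together with a correlation of 0.222 over 7990 genes, and there are 2 pairs. With the replicate block 334 of 17090 genes were called, and 1 of the 50, RFC1 (adjusted p = 0.0276, edgeR). Of the 81 other pathway genes it called 3, MCM8 (adjusted p = 1.85e-07), RB1 and TOP2A (adjusted p = 0.0478 each, edgeR). The block with the trend removed called 14 genes and 0 of the 50.

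Of 26 genes given by rule, 14 kept the sign of their log2 fold change in all 16 alternatives run on single genes. Trend removal without and with the block gave MCM7 -0.0002 and -0.0005, RFC2 -0.0739 and -0.0744, TK1 -0.0735 and -0.0735, and E2F1 -0.0852 and -0.0852. Library totals alone gave RFC2 -0.058, RPA3 -0.0003, DNA2 -0.0313 and E2F1 -0.0008, and log2(FPKM + 1) gave RFC2 -0.0409 and DNA2 -0.13. The highest row alone gave POLD1 -0.58, RPA3 -0.0073, DNA2 -2.10, RRM2 0.50 and UHRF1 1.59. Beyond the 26, the highest row alone gave MCM4 0.59, MCM10 0.51, CDC45 0.46, POLA1 2.96, PRIM1 0.21, CCNE1 0.09 and DUT -0.07. Each of these had the other sign in the main fit. With 1 library left out, RFC2 ran from -0.0836 to 0.155, DNA2 from -0.197 to 0.324, RPA3 from -0.0329 to 0.221, FEN1 from -0.165 to 0.0029, LIG1 from -0.102 to 0.0551 and CCNE2 from -1.93 to 0.224. The cause of each was not tested. CCNE2 had 8 to 41 counts per library and a 95% interval from -2.33 to 1.38.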
